A study of Homo sapiens with 6 samples.

Results

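Neuronal RNA splicing and RNA-binding proteins were followed through 10 genes in NCI-H660 libraries: SRRM4, SRRM3, NOVA1, NOVA2, ELAVL2, ELAVL3, ELAVL4, CELF3, PTBP1 and PTBP2. They were found by exact symbol, and all 10 were present among the 28008 symbols of the count table and the 25673 of the TPM table. Of these, 7 passed the filter on low counts and were among the 17026 genes tested, while SRRM4, NOVA2 and ELAVL4 did not pass. NCI-H660 (H660) is a human line of neuroendocrine prostate cancer (NEPC), a form that has lost the luminal androgen receptor program. In all 6 libraries the cells held a MUC1 hairpin (shRNA) under tetracycline control, in a vector with puromycin selection, and parental cells were not analysed here. DOX-negative cells (n = 3) received 0.1% DMSO as vehicle, and DOX-positive cells (n = 3) received doxycycline (DOX) at 500 ng/ml. The study gives an exposure of a week for these cells, in its description of the RNA-seq result. The groups were taken from the sample titles, since the treatment label reads wild-type for all 6 samples. No library with DOX and a non-targeting hairpin was analysed here, so an effect of DOX itself and an effect of the knockdown cannot be told apart. The labels state that the cells were cultured in triplicate, and p-values measure the spread between these libraries.

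Several of the neuronal splicing regulators act on exons, some of them very short (microexons), that are joined into mRNA mainly in neurons and neuroendocrine cells. SRRM4 and its paralog SRRM3 activate the inclusion of microexons, and SRRM4 is known in NEPC for an exon of REST that yields a truncated form of this repressor of neuronal genes. NOVA1 and NOVA2 bind clustered short motifs in pre-mRNA, the neuronal ELAVL (Hu) proteins bind AU-rich and U-rich RNA and stabilise mRNA, and CELF3 belongs to a family that regulates splicing and mRNA decay. PTBP1 is widely expressed and represses neuronal exons, among them an exon of PTBP2 without which the PTBP2 mRNA is degraded. Counts per gene do not show which exons were used, so microexon inclusion, the truncated REST form and the PTBP2 exon were not measured.

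Total counts were between 47620696 and 74061121 per library. MUC1 was measured at 88.2, 90.2 and 79.6 normalized CPM (each library brought to the same effective size) in the DOX-negative libraries and at 36.7, 37.2 and 29.9 in the DOX-positive libraries. MUC1 was lower in every DOX-positive library, and the fitted log2 fold change was -1.32 (SE 0.096, adjusted p = 0.00017). All 10 neuroendocrine markers had a mean of at least 1 TPM (counts per gene length, scaled to a common total), and their summed level was 138.9 to 201 TPM without DOX and 129.5 to 205.7 TPM with DOX. Of the 10, INSM1 (log2 fold change -0.45, adjusted p = 0.039) and NCAM1 (-0.50, adjusted p = 0.014) were called lower with DOX and the other 8 were not called. Of the 10, 7 were below 0 and 3 above, CHGB at 0.29, ENO2 at 0.13 and SCG3 at 0.10. The uncalled markers below 0 were FOXA2 (-0.53, adjusted p = 0.32), DLL3 (-0.47, adjusted p = 0.054), CHGA (-0.20), SCG2 (-0.18) and SYP (-0.029). Over all genes tested, 4.87% were called. None of 7 luminal markers reached 1 TPM, KLK3 was at 0 in every library, and of 7 markers of mature neurons only GAD1 reached 1 TPM while GAD2, NEUROD6 and CAMK2A were at 0. The neuron markers summed to 1.39 to 1.48 TPM without DOX and 1.53 to 2.19 TPM with DOX, which did not overlap, and GAD1, the 1 that was tested, was not called (adjusted p = 0.20). Among 6 leukocyte markers none reached 1 TPM and CD3E and NKG7 were at 0, but their sum was 0.344 to 0.411 TPM without DOX and 0.554 to 0.719 TPM with DOX, and CD68 was called higher. Among 8 fibroblast markers 1 reached 1 TPM and COL3A1 and THY1 were at 0, their sums overlapped (2.41 to 3.47 and 2.46 to 3.64 TPM), and of the 3 that were tested, COL1A1 (log2 fold change 0.60) and LUM (1.06) were called higher and COL1A2 was not called (-0.71, adjusted p = 0.20, with a mean of 1.81 TPM without DOX and 1.15 TPM with DOX). These sums are in deposited TPM, without the scaling between libraries used for CPM, and so include a difference in scale between libraries. For example, PTBP1 had 121.6 TPM at 579 normalized CPM in DOX-positive replicate 1. In DOX-positive replicate 2 it had 86.9 TPM at 624 normalized CPM. The part of these markers in the results on the members was not tested. In bulk RNA, fewer cells of a kind and less RNA per cell cannot be told apart.

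The promoter sequences of the SRRM and NOVA pairs are shown because each pair holds 1 well-counted and 1 nearly uncounted paralog. Each is the 250 bases before the annotated 5′ end of the gene in RefSeq (GRCh38.p14), printed 5′ to 3′ on the strand of the gene, and capitals mark the GC box GGGCGG or its reverse complement CCGCCC. The windows are chr7:76201646-76201895 (+ strand) for SRRM3, chr12:118981291-118981540 (+ strand) for SRRM4, chr14:26598034-26598283 (− strand) for NOVA1 and chr19:45973866-45974115 (− strand) for NOVA2.
SRRM3: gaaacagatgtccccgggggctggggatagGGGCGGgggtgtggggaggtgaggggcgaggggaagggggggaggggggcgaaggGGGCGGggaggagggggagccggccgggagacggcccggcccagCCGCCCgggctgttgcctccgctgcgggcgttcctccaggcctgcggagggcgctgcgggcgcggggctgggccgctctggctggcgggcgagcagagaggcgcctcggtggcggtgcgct
SRRM4: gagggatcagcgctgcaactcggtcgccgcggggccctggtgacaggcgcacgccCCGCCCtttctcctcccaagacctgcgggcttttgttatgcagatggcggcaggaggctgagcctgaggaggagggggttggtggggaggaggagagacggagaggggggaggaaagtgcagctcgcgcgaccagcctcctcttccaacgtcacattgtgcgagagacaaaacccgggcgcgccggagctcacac
NOVA1: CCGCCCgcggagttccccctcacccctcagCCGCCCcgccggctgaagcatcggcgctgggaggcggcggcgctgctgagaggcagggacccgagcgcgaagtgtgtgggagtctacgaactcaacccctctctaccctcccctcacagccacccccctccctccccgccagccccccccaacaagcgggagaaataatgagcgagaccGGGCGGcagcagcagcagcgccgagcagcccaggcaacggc
NOVA2: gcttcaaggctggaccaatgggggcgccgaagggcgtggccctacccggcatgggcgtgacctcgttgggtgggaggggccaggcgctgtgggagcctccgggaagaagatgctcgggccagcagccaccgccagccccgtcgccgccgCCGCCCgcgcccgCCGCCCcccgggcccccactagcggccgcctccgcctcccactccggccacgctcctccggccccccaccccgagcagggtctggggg
In these windows, GC content was 66.4% for SRRM4 and 78.0% for NOVA2, the nearly uncounted paralogs, beside 79.2% for SRRM3 and 71.6% for NOVA1. CpG dinucleotides numbered 20 and 27 in SRRM4 and NOVA2, and 26 and 23 in SRRM3 and NOVA1, where the median of all 35116 windows was 11. The GC box was present 3 times in SRRM3, 1 time in SRRM4, 3 times in NOVA1 and 2 times in NOVA2, and 42.6% of all windows held at least 1. Windows of NOVA1 at other annotated starts had a GC content of 44.8% and 35.6%, with 1 and 2 CpG and 0 GC boxes. The start used in these cells was not measured. Over both strands, 12 of the 23 windows of 9 members held the GC box, 11 held CCAAT (32.0% of all windows) and 2 held TATAAA (10.7%). Windows of the same gene can overlap, as 2 of ELAVL2 do, so a site can be counted more than 1 time. The core of the REST element, searched as CAGCACC followed after 2 bases by GGACAG, was in 0 of the 23 windows and in 0.0456% of all windows. At so low a share, 0 of 23 does not set the members apart from other genes. Its first part alone, CAGCACC, was in 1 member window, that of PTBP1, and in 6.16% of all windows. ELAVL3 had no entry.

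The levels of the members spanned most of the range of expression in these cells. On the TPM scale, over all 6 libraries, PTBP1 was highest at 100.7 ± 16.3 (mean ± SD), followed by PTBP2 at 4.70 ± 0.925, NOVA1 at 4.20 ± 1.02, ELAVL2 at 3.23 ± 0.571, SRRM3 at 3.09 ± 0.437, CELF3 at 1.10 ± 0.253 and ELAVL3 at 0.985 ± 0.315. NOVA2 (0.00558 TPM), ELAVL4 (0.00304 TPM) and SRRM4 (0.00017 TPM) lay far below these. PTBP2 and NOVA1, ELAVL2 and SRRM3, and CELF3 and ELAVL3 were neighbours whose means differed by less than their spread between libraries. This spread includes the difference in TPM scale between libraries, so it does not decide the order within a library. Compared within each library, PTBP2 was above NOVA1 in every library. CELF3 was above ELAVL3 in every library except DOX-positive replicate 1. The order of ELAVL2 and SRRM3 was mixed, with ELAVL2 lower in DOX-negative replicate 1 and DOX-positive replicate 2 and higher in the others. Among genes with a TPM above 0, PTBP1 stood at percentile 98.7, PTBP2 at 69.6, NOVA1 at 67.3, ELAVL2 at 62.2 and SRRM3 at 61.3. CELF3 (45.9) and ELAVL3 (44.7) stood near the middle, and NOVA2 (10.9), ELAVL4 (7.75) and SRRM4 (0.141) near the bottom.

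**Figure D1:**
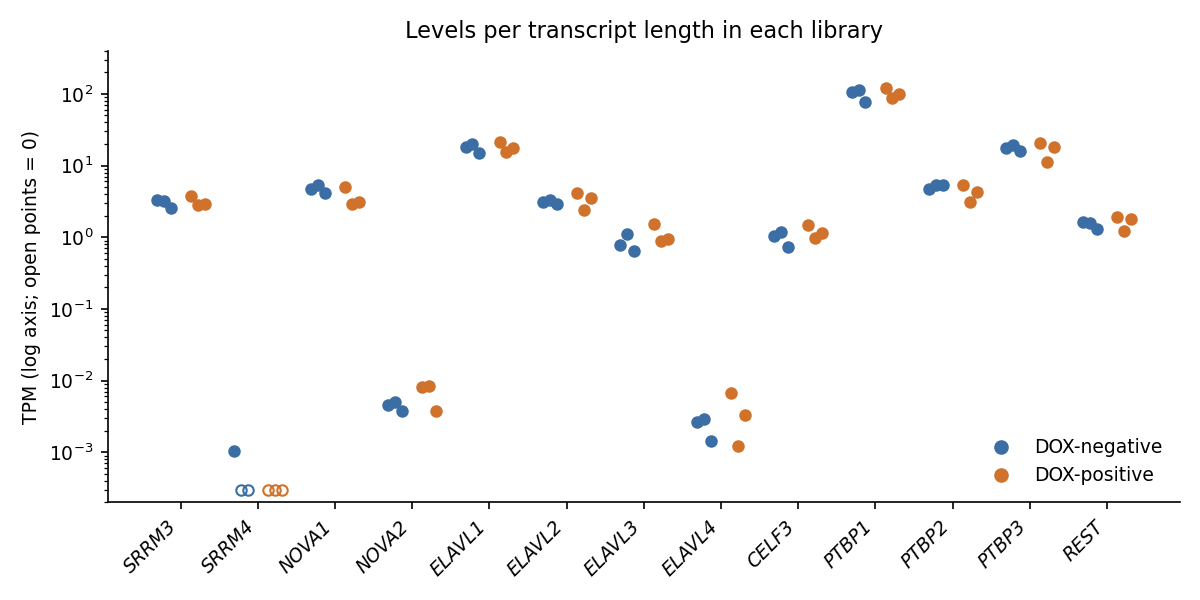
TPM of the 10 members and of ELAVL1, PTBP3 and REST in each library on a log axis, with DOX-negative libraries in blue, DOX-positive libraries in orange and open points for a value of 0. PTBP1 has a mean of 100.7 TPM, 6 members lie between 0.985 and 4.70 TPM on average, and SRRM4, NOVA2 and ELAVL4 lie below 0.01 TPM.

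SRRM4 was practically uncounted in this NEPC line. It had 1 count in DOX-negative replicate 1 and 0 counts in the other 5 libraries, out of 377276141 counts in all. The exact Poisson 95% interval of this single count runs from 0.0253 to 5.57 counts, or up to 0.0148 CPM, and in single libraries a count of 0 allows up to 0.0405 to 0.0630 CPM (3 counts). These intervals and limits cover counting error only, and a difference in SRRM4 between the groups was not detectable at this depth. SRRM3, which shares the microexon-activating domain of SRRM4, was measured at 21.1, 19.7 and 20.2 normalized CPM without DOX and at 20.6, 22.7 and 19.7 with DOX. The groups overlapped, with means of 20.3 ± 0.697 and 21.0 ± 1.53 (SD, n = 3 each). The log2 fold change of SRRM3 was 0.043 (95% interval -0.15 to 0.23, adjusted p = 0.82). SRRM3 therefore held nearly all of the TPM of the pair, at least 99.97% in every library.

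REST, the repressor whose transcript SRRM4 is known to splice, was counted at 22.2, 20.3 and 21.3 normalized CPM without DOX and at 21.2, 20.6 and 24.7 with DOX. The groups overlapped (log2 fold change 0.062, SE 0.093, adjusted p = 0.76).

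NOVA1 was the member with the clearest difference. It was measured at 35.2, 37.9 and 38.3 normalized CPM in the DOX-negative libraries and at 32.3, 27.4 and 24.3 in the DOX-positive libraries. Every DOX-positive library lay below every DOX-negative library, and the means were 37.1 ± 1.67 and 28.0 ± 4.02 (SD, n = 3 each). The difference was 24.6% on the fitted scale (log2 fold change -0.41, SE 0.10, 95% interval -0.63 to -0.18, adjusted p = 0.046). NOVA1 was the 1 call among the 7 tested members (14.3%), against 4.87% of all genes tested, of which 1.96% were called lower and 2.91% higher. The call lay close to the threshold of 0.05 and was lost in 8 of 13 alternative settings, with log2 fold changes from -0.52 to -0.31 and adjusted p from 0.0058 to 1.00. Among the 8 were the 3 limma fits on TPM, which called 30, 35 and 0 of all genes. In the limma fit that called 0, on unfiltered TPM, MUC1 lost its call as well (adjusted p = 0.29). Leaving out DOX-negative replicate 1, 2 or 3 gave adjusted p of 0.061, 0.17 and 0.19, leaving out DOX-positive replicate 2 or 3 gave 0.080 and 0.12, and leaving out DOX-positive replicate 1 gave 0.015. In deposited TPM, NOVA1 was at 4.66, 5.31 and 4.15 without DOX and at 5.10, 2.88 and 3.09 with DOX. On that scale DOX-positive replicate 1 overlapped the DOX-negative group. Deposited TPM were not scaled further between libraries. In DOX-positive replicate 1, ELAVL1 had its highest TPM (21.6) and its lowest normalized CPM (195.8). SRRM3 also had its highest TPM there (3.79), at 20.6 normalized CPM. PTBP2 and, of the genes named below, RCOR2, MEF2C and IGF2BP2 had their highest TPM in other libraries. Whether the scale of TPM accounts for the overlap of NOVA1 was not tested.

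NOVA2, the paralog of NOVA1, was counted 4, 4 and 3 times in the DOX-negative libraries and 7, 8 and 4 times in the DOX-positive libraries. The summed counts were 11 (exact Poisson 95% interval 5.49 to 19.7) and 19 (11.4 to 29.7), and these intervals overlapped. Without the filter the adjusted p of NOVA2 was 0.69. NOVA1 held at least 99.7% of the TPM of the pair in every library.

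**Figure D2:**
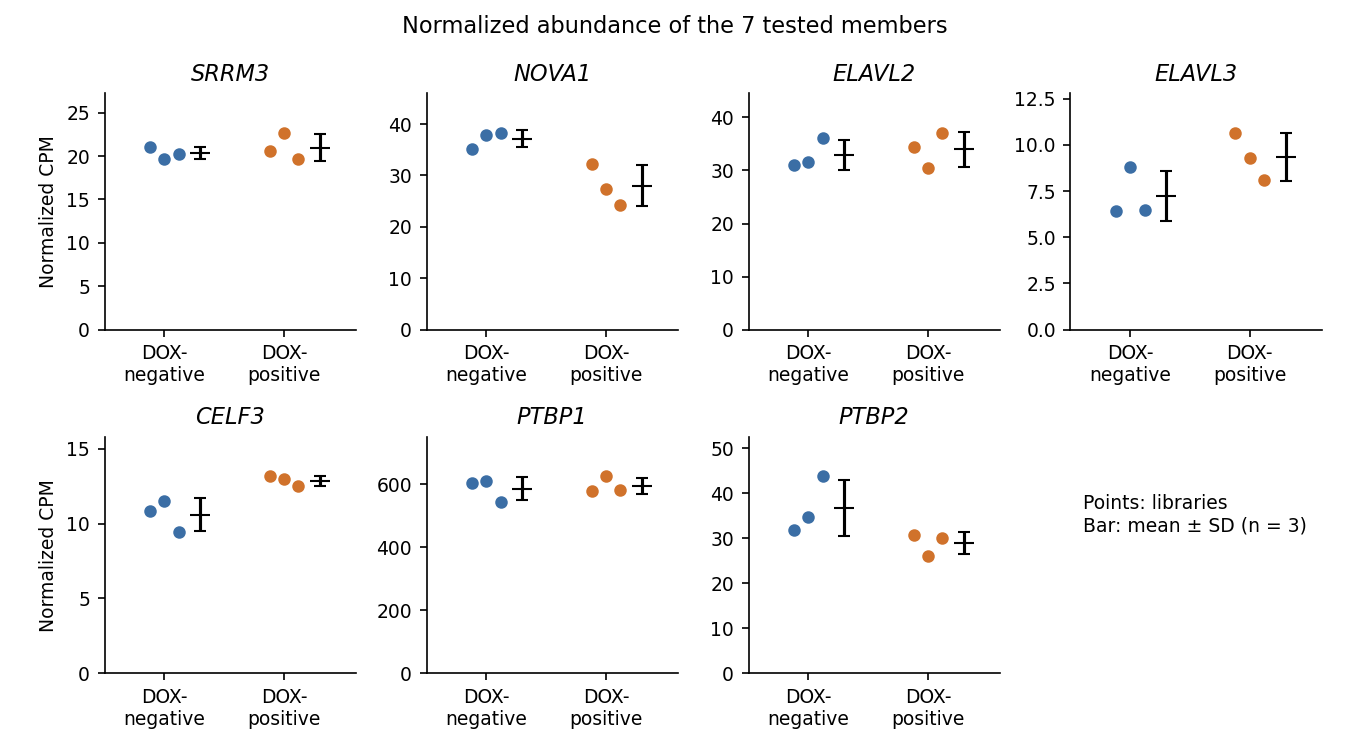
Normalized CPM of the tested members in each library, with points for libraries and marks for the mean and SD of the 3 libraries of a group. The DOX-positive points of NOVA1 (24.3 to 32.3) lie below its DOX-negative points (35.2 to 38.3), while those of SRRM3, ELAVL2, ELAVL3 and PTBP1 overlap.

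Of the neuronal ELAVL genes, ELAVL2 was the most expressed. ELAVL2 was measured at 30.9, 31.7 and 36.2 normalized CPM without DOX and at 34.4, 30.4 and 37.1 with DOX, and the groups overlapped (log2 fold change 0.046, SE 0.097, adjusted p = 0.83). ELAVL3 was measured at 6.42, 8.79 and 6.49 without DOX and at 10.65, 9.29 and 8.08 with DOX. DOX-negative replicate 2 exceeded DOX-positive replicate 3, so the groups overlapped, and the log2 fold change of 0.37 (SE 0.14, adjusted p = 0.17) did not pass the test. ELAVL4 had 2, 2 and 1 counts without DOX and 5, 1 and 3 counts with DOX, summing to 5 (1.62 to 11.7) and 9 (4.12 to 17.1) with overlapping exact Poisson 95% intervals. ELAVL1 (HuR), the broadly expressed member of the family, held 81.6% ± 0.951 of the ELAVL1 to ELAVL4 TPM without DOX and 80.5% ± 1.74 with DOX. Its difference did not pass the test (log2 fold change 0.017, SE 0.068, adjusted p = 0.92). Among the neuronal members alone, ELAVL2 held 78.9% ± 3.77 without DOX and 74.8% ± 3.62 with DOX.

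CELF3 was measured at 10.8, 11.5 and 9.41 normalized CPM in the DOX-negative libraries and at 13.2, 12.9 and 12.5 in the DOX-positive libraries. Every DOX-positive library lay above every DOX-negative library, with means of 10.6 ± 1.08 and 12.9 ± 0.338 (SD, n = 3 each), yet the log2 fold change of 0.28 (SE 0.099) had an adjusted p of 0.13. In the CELF family the ubiquitous CELF1 held 71.9% of the TPM without DOX, CELF4 held 15.2%, and CELF3 held 6.02% ± 0.628 without DOX and 7.12% ± 0.305 with DOX. RIIAD1, which overlaps CELF3 on the genome, had a mean of 4 counts, where CELF3 had 746.8.

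PTBP1 was abundant in both groups, and no difference passed the test. Its normalized CPM was 602, 611 and 544 without DOX and 579, 624 and 581 with DOX, and the groups overlapped. The log2 fold change was 0.023 with a 95% interval of -0.14 to 0.19 (adjusted p = 0.90), on means of 585.6 ± 36.5 and 595.0 ± 25.5. A pseudogene of PTBP1, PTBP1P, resembles it in sequence, and the way reads shared by the gene and the copy were counted is not given in the sources used here.

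PTBP2, the neuronal paralog, was measured at 31.8, 34.7 and 43.7 normalized CPM without DOX and at 30.7, 26.1 and 30.1 with DOX. Every DOX-positive library lay below every DOX-negative library, although DOX-positive replicate 1 and DOX-negative replicate 1 were close together. The log2 fold change was -0.34 (SE 0.12) and the adjusted p was 0.12. PTBP3, another paralog outside the chosen genes, overlapped between the groups (log2 fold change -0.15, adjusted p = 0.40). PTBP1 exceeded PTBP2 in TPM by 22.5, 20.9 and 14.8 times without DOX and by 22.4, 28.4 and 22.9 times with DOX. The lowest of these ratios was that of DOX-negative replicate 3. The log2 ratio of PTBP2 to PTBP1 was -4.25 ± 0.32 without DOX and -4.61 ± 0.19 with DOX, a difference of -0.36 (two-sided exact permutation test, p = 0.2, where 3 against 3 libraries cannot go below 0.1). Without DOX-negative replicate 3 the difference was -0.17.

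**Figure D3:**
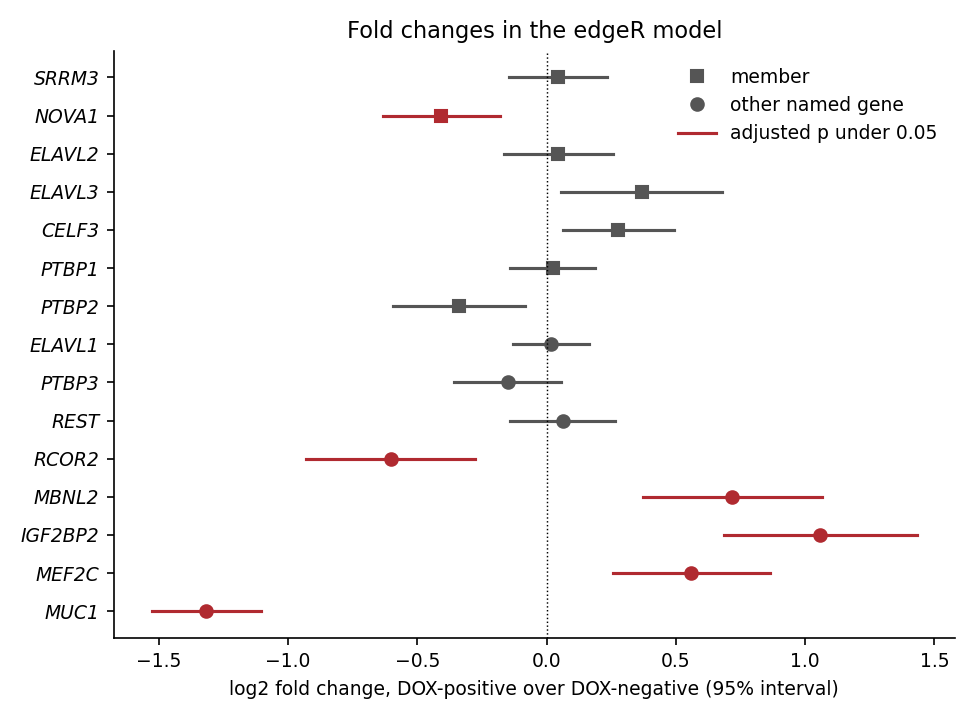
Log2 fold change of DOX-positive over DOX-negative with its 95% interval in the edgeR model, for the 7 tested members (squares) and other named genes (circles), where red marks an adjusted p under 0.05. Among the members only NOVA1 is red at -0.41, and the intervals of SRRM3, ELAVL2 and PTBP1 span 0.

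Groups did not overlap for 3 of the 7 tested members, 2 lower (NOVA1 and PTBP2) and 1 higher (CELF3), against 28.1% of all genes tested. An unadjusted p under 0.05 was found for 4 of the 7, with NOVA1 and PTBP2 lower and CELF3 and ELAVL3 higher, against 21.1% of all genes. The median log2 fold change of the 7 was 0.043, beside 0.00034 over all genes tested.

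**Figure D4:**
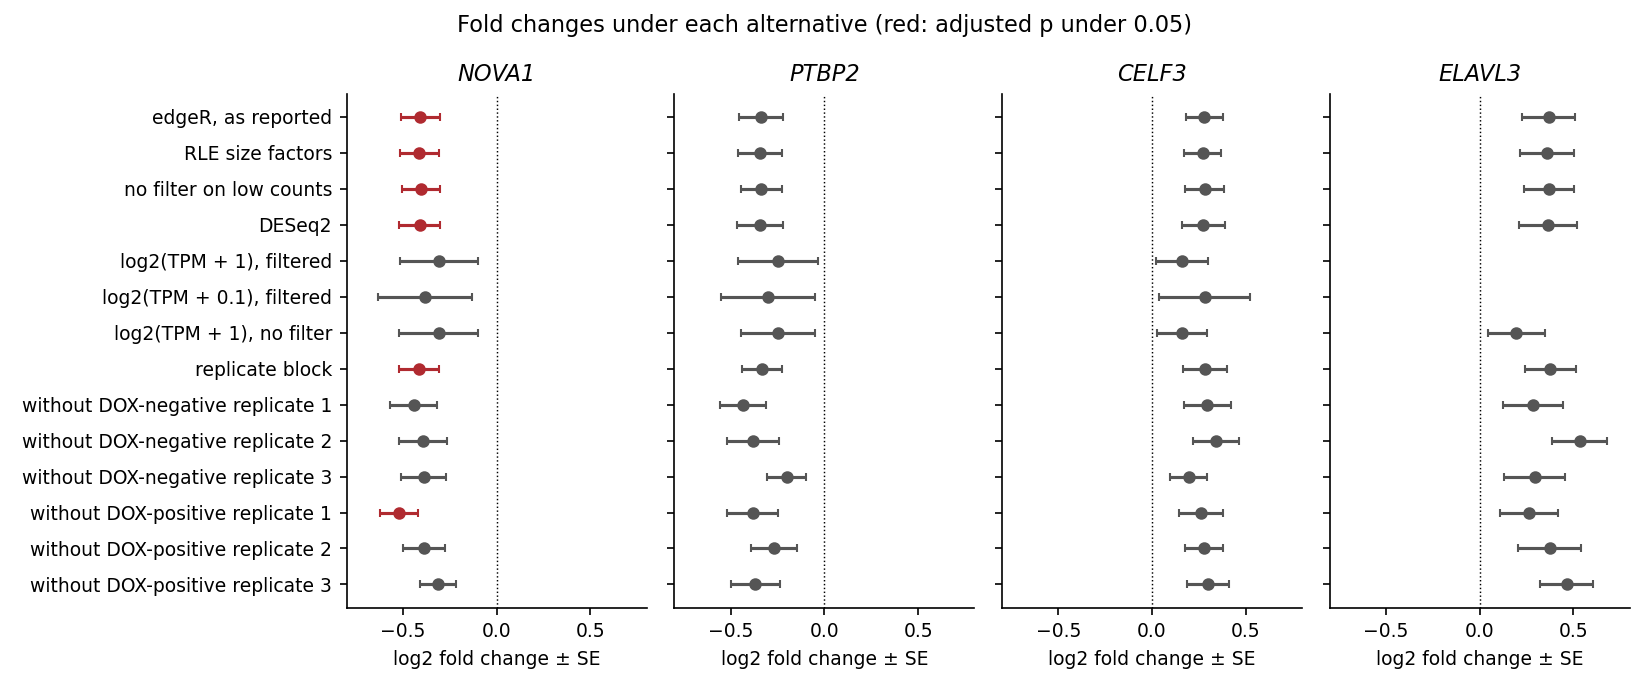
Log2 fold change ± SE of NOVA1, PTBP2, CELF3 and ELAVL3, the members with an unadjusted p under 0.05, in the reported fit and under each alternative setting, where red marks an adjusted p under 0.05. NOVA1 ranges from -0.52 to -0.31 and is red in 5 of 13 alternatives, and PTBP2, CELF3 and ELAVL3 are red in none of theirs.

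The relatives of the members were counted from a list of 46 other RNA-binding proteins, such as the MBNL, MSI, KHDRBS, RBFOX and IGF2BP families. Of these, 40 were tested, and edgeR called 2 higher and 0 lower with DOX (5.0%, against 4.87% of all genes), with 4 higher and 4 lower at an unadjusted p under 0.05. DESeq2 called the same 2 and also MSI2, a musashi RNA-binding protein named after its value was seen, lower (DESeq2 log2 fold change -0.25, adjusted p = 0.047, and 0.089 in edgeR). IGF2BP2, which binds and stabilises mRNA, was at 1.78, 1.58 and 1.41 normalized CPM without DOX and at 2.66, 3.53 and 3.82 with DOX, with no overlap (log2 fold change 1.06, SE 0.17, adjusted p = 0.0085). MBNL2, a splicing regulator of the muscleblind family, was at 2.22, 2.28 and 2.44 without DOX and at 4.64, 3.15 and 3.57 with DOX, also with no overlap (log2 fold change 0.72, SE 0.16, adjusted p = 0.026). Both were lower in TPM (0.304 and 0.360) than any tested member. The call of IGF2BP2 was lost without DOX-negative replicate 3 (adjusted p = 0.075), and that of MBNL2 was lost without DOX-negative replicate 1 (0.061), 2 (0.11) or 3 (0.11) or DOX-positive replicate 1 (0.058). RBFOX1, RBFOX3, CELF2, KHDRBS2, RBM24 and IGF2BP1 did not pass the filter, so RBFOX1 and RBFOX3, which are largely neuronal, were nearly uncounted. The median of the 40 was 0.023, with 21 above 0 and 19 below.

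Of 36 SR proteins and hnRNPs, the general splicing factors that enhance or silence exons, all were tested and 0 passed the test in edgeR, while 8 of 36 had an unadjusted p under 0.05, close to the 21.1% of all genes. All 8 were lower with DOX, where 9.53% of all genes were lower at that p. DESeq2 called 2 of the 35 that it gave an adjusted p, a smaller share than its 8.46% of all genes. The median log2 fold change was -0.11, beside 0.00034 over all genes, with 30 below 0 and 6 above. The groups did not overlap for 21 of the 36, of which 20 were lower, where 28.1% of all genes did not overlap and 13.3% did so with DOX lower. SRSF1 and HNRNPH1, named after their values were seen as the 2 that DESeq2 called, each had a DESeq2 log2 fold change of -0.26 with adjusted p of 0.018 and 0.019, and adjusted p of 0.062 and 0.063 in edgeR.

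Among 17 genes of REST and its corepressors, edgeR called 0 higher and 1 lower (5.88%, against 4.87% of all genes), with a median of -0.014. RCOR2, a corepressor that pairs with the demethylase KDM1A, was at 6.51, 8.20 and 7.62 normalized CPM without DOX and at 5.79, 5.00 and 3.89 with DOX. The groups did not overlap (log2 fold change -0.60, SE 0.15, adjusted p = 0.042). Among 26 genes known to host neural microexons, edgeR called 1 higher and 0 lower (3.85%), with a median of -0.039. REST, PHF21A and KDM1A belong to both of these lists and were counted in each. MEF2C, a transcription factor of muscle and neurons, was at 23.9, 20.3 and 22.8 without DOX and at 27.6, 29.3 and 41.7 with DOX, with no overlap (log2 fold change 0.56, SE 0.14, adjusted p = 0.043). RCOR2 lost its call without DOX-negative replicate 2 (adjusted p = 0.17) or 3 (0.17) or DOX-positive replicate 2 (0.075) or 3 (0.10), and MEF2C without DOX-negative replicate 1 (0.057), 2 (0.17) or 3 (0.17) or DOX-positive replicate 2 (0.087) or 3 (0.087). The calls of IGF2BP2, MBNL2, RCOR2 and MEF2C held in 9 of 11, 6 of 11, 6 of 13 and 5 of 13 alternatives.

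**Figure D5:**
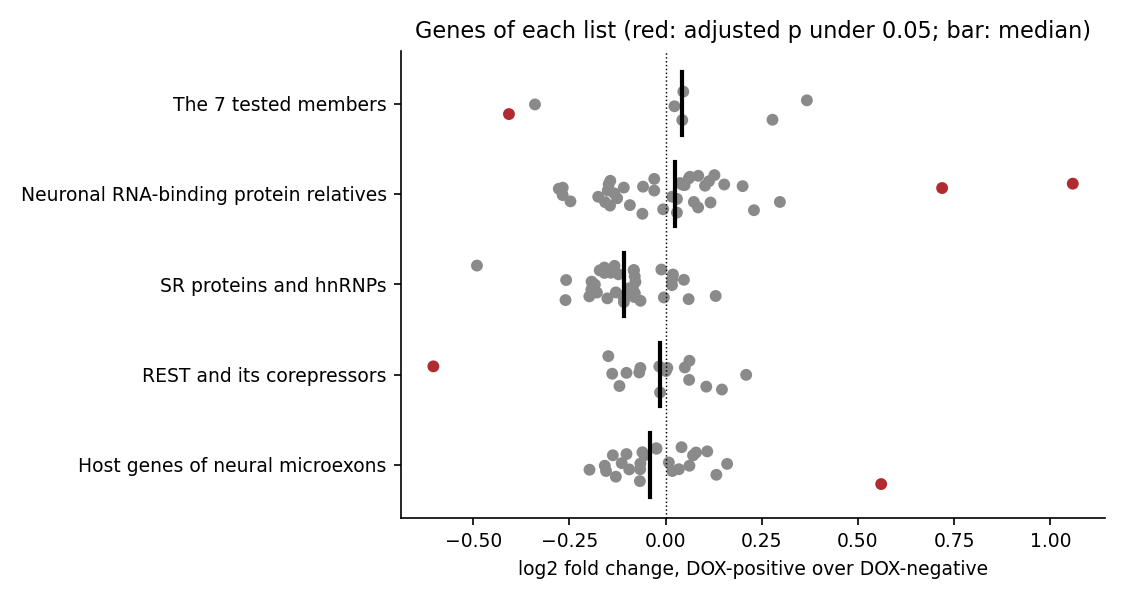
Log2 fold change of every tested gene in the members and in each list, where red marks an adjusted p under 0.05 in edgeR. The SR proteins and hnRNPs have a median of -0.11 and no red point, and the other lists have medians between -0.039 and 0.043.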

How the data were processed

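RNA was extracted from 6 cultures of NCI-H660 cells and, per the labels, made into stranded mRNA libraries. The values deposited by the authors are raw counts for each symbol and TPM, which divide counts by gene length and scale them to a common total. STAR, DESeq2 and the builds GRCh38 and hg38 are named in the submitters' processing notes. Versions, annotation, the counter and its strand setting are not given in the sources used here. Counts were filtered with filterByExpr, scaled with TMM factors and tested with the quasi-likelihood test of edgeR 4.0.16 (R 4.3.3), DOX-positive against DOX-negative, with no covariate. P values were adjusted by Benjamini-Hochberg over 17026 genes and called under 0.05. Adjusted p values come from edgeR unless another tool is named. Fitting was tested on simulated data with 200 changed genes. Alternatives were RLE size factors, no filter, DESeq2 1.42.0, limma 3.58.1 on log2(TPM + 1) or log2(TPM + 0.1) with a mean TPM of at least 1, log2(TPM + 1) without a filter, a replicate block, and leaving out each library. Within-group libraries differed by more than sampling noise (chi-square per degree of freedom 17.9 to 111). The text names all 10 members, MUC1, REST, ELAVL1, PTBP3 and up to 5 called genes per list with the largest change. The members and lists were chosen with earlier results of these data known. Promoter windows and overlaps came from RefSeq (GRCh38.p14).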

Additional observations from a re-analysis of the deposited data

How the results depend on the processing

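The 829 calls in edgeR became 1354 in DESeq2, 30 in limma on filtered TPM with a pseudocount of 1, 35 with a pseudocount of 0.1, and 0 in limma on unfiltered TPM, where 1248 genes had an unadjusted p under 0.05. Calls that were higher with DOX made up 59.8% in edgeR, and 43.3% and 45.7% in the filtered TPM fits. Leaving out 1 library gave 58 to 1035 calls, the lowest when DOX-negative replicate 3 was dropped. Dropping DOX-negative replicate 2 gave 127 and dropping DOX-positive replicate 3 gave 375. In the 3 TPM fits, 0 members, 0 RNA-binding relatives, 0 REST corepressor genes and 0 microexon hosts were called. The filtered TPM fits tested 34 of the relatives and left out IGF2BP2 and MBNL2, whose mean TPM was below 1. The unfiltered fit called 0 genes of any kind, so its result does not bear on any single list. The filtered fits called 30 and 35 of the 11707 genes they tested. At so low a share, 0 calls in a short list does not set it apart from other genes. Without 1 library, 0 to 1 members, 0 to 3 relatives, 0 to 1 REST corepressor genes, 0 to 1 microexon hosts and 0 SR proteins and hnRNPs were called, the last list having 2 calls in DESeq2. The NOVA1 call was kept with RLE (adjusted p = 0.043), without a filter (0.019), in DESeq2 (0.0058), with the block (0.017) and without DOX-positive replicate 1 (0.015). It was lost in the 3 TPM fits (1.00) and without DOX-negative replicates 1 (0.061), 2 (0.17) and 3 (0.19) or DOX-positive replicates 2 (0.080) and 3 (0.12). Leaving out 1 library turned the direction of SRRM3 (-0.013 to 0.087), ELAVL2 (-0.022 to 0.12), PTBP1 (-0.033 to 0.055), REST (-0.023 to 0.11) and ELAVL1 (-0.016 to 0.037), none of them called, and the PTBP2 to PTBP1 ratio ranged from -0.48 to -0.17. The cause was not tested. To look for pairing by replicate number, the group mean of each gene was first subtracted. What remained had correlations of -0.56, 0.022 and -0.077 between libraries sharing a number, over 14587 genes. These values gave no sign of pairing. They cannot exclude it, because with 3 libraries per group the remainders depend on each other. Whether a replicate block applies was therefore not settled. Adding the replicate number as a block gave 998 calls, and 750 of the 829 were among them. The ratio of SRRM4 to REST was not computed, because SRRM4 was at 0 in 5 libraries. Depth limits SRRM4, NOVA2 and ELAVL4.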
